A study of Homo sapiens with 6 samples.

Results

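A set of 101 genes changed alike in 2 lung cancer lines when they had been selected for resistance to EGFR kinase inhibitors: 37 were higher and 64 lower in the resistant library of both HCC827 and H1975. A gene entered the set where its CPM (exon reads scaled to the size of the library, with TMM factors, which trim extreme genes) differed at least 2-fold the same way in both lines. The ratio was log2 of resistant over parental with 1 CPM added to each, and at least 1 of the 2 libraries of each line had to reach 10 CPM. The files list 21463 genes, of which 9212 were measured by that rule in both lines. The genes were chosen by these ratios of total exon reads, so their changes in HCC827 and H1975 are given as a description with no test. The lines themselves were chosen because the epithelial cadherin gene CDH1 was far lower in their resistant sublines, so its levels below restate that choice.

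Messenger RNA had been sequenced from HCC827, H1975 and PC9, EGFR-mutant lines established from human non-small cell lung cancers, as 1 parental and 1 resistant library each. HCC827 carries the mutation labelled E19Del, and its resistant subline HCC827-GR had been selected with gefitinib, a reversible EGFR kinase inhibitor. H1975 carries L858R and T790M, and H1975-OR had been selected with osimertinib, which binds EGFR covalently and also blocks T790M. PC9 carries E19Del and PC9-GR had been selected with gefitinib. The 2 PC9 libraries shared in the TMM scaling over the 6 libraries, but no ratio between them chose the genes. The pair was left out for its smaller change in CDH1. Parental cells were untreated. Per the labels' protocols, selection lasted 90 days with rising drug doses, and the half-maximal inhibitory concentration over the 3 lines went from between 0.016 and 0.07 µM to between 4.288 and 12.485 µM. The labels do not say whether a resistant subline is 1 clone, nor whether drug was present when RNA was taken. Drug, EGFR mutation and line cannot be told apart when HCC827 and H1975 differ.

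Each library held between 21222102 and 29366085 exon reads, and 3 reads, the most that a count of 0 allows, came to 0.0985 to 0.145 CPM. With 1 library per state in each line, a difference within a line has no replicate check, and the intervals given below cover counting error only. Whether the libraries came from separate cultures is not stated. Where a pair of CPM values is given for a line, the parental library comes first. Where a pair of log2 ratios is given, HCC827 comes before H1975. Fold values of single genes are ratios of CPM with nothing added, so they exceed what the log2 ratios give where a library is low. A listed gene called higher or lower in 1 line alone did not reach 2-fold the same way in the other line. It could move the opposite way there. Keratin genes of simple epithelia were abundant in all 4 libraries (KRT7 from 311 to 3337 CPM), while the alveolar surfactant genes SFTPC and SFTPB reached at most 0.0424 and 3.32 CPM. Some of these markers were lower in resistant HCC827. KRT8 was at 4082 and 944 CPM in HCC827 and at 1198 and 841 CPM in H1975. KRT18 was at 3277 and 757 CPM in HCC827 and at 689 and 508 CPM in H1975. NAPSA, a lung adenocarcinoma marker, was at 289 and 28.9 CPM in HCC827 and at 0.552 and 0.0985 CPM in H1975. NKX2-1, the lung lineage factor, was at 140 and 121 CPM in parental and resistant HCC827 and at 8.45 and 4.56 CPM in H1975.

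Epithelial cells are held together by adherens junctions, tight junctions and desmosomes, and they keep an apical surface apart from a basal one. In epithelial to mesenchymal transition, repressors of the ZEB and SNAI families bind E-box sequences near epithelial genes such as CDH1 and lower their transcription, and cells gain cytoskeletal and matrix genes of mesenchyme. In lung cancers with EGFR mutations this transition is known as one of the states that accompany resistance to EGFR inhibitors.

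Among the 9212 measured genes, the 37 genes higher in both lines were 0.402% and the 64 lower in both were 0.695%. Counted whatever the other line did, 819 genes (8.89%) were at least 2-fold higher and 522 (5.67%) lower in HCC827. In H1975 92 (0.999%) were higher and 259 (2.81%) lower, and these counts include the shared genes. Over all genes measured in 1 line, whether or not in the other, 10.5% were higher and 7.65% lower in HCC827, and 1.76% and 3.22% in H1975. The shared higher genes made up 4.52% of the HCC827 list and 40.2% of the H1975 list. The shared lower genes made up 12.3% and 24.7%. With the deposited TPM, which also divides by exon length, in place of CPM the counts were 22 higher and 69 lower. A further 60 genes (0.651%) were 2-fold higher in HCC827 and lower in H1975, and 10 (0.109%) went the other way.

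The size of the change differed between the lines. Among the higher genes the median log2 ratio was 2.57 in HCC827 (1.05 to 5.96) and 1.41 in H1975 (1.03 to 3.51), and 31 of the 37 moved further in HCC827. Among the lower genes it was −2.34 in HCC827 (−6.13 to −1.03) and −1.85 in H1975 (−5.14 to −1.02), and 39 of 64 moved further in HCC827. Over all measured genes the medians were −0.01 and 0.06. At least a 4-fold change in both lines was reached by 7 higher and 14 lower genes, and the counting interval lay beyond 2-fold in both lines for 31 and 54.

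**Figure D1:**
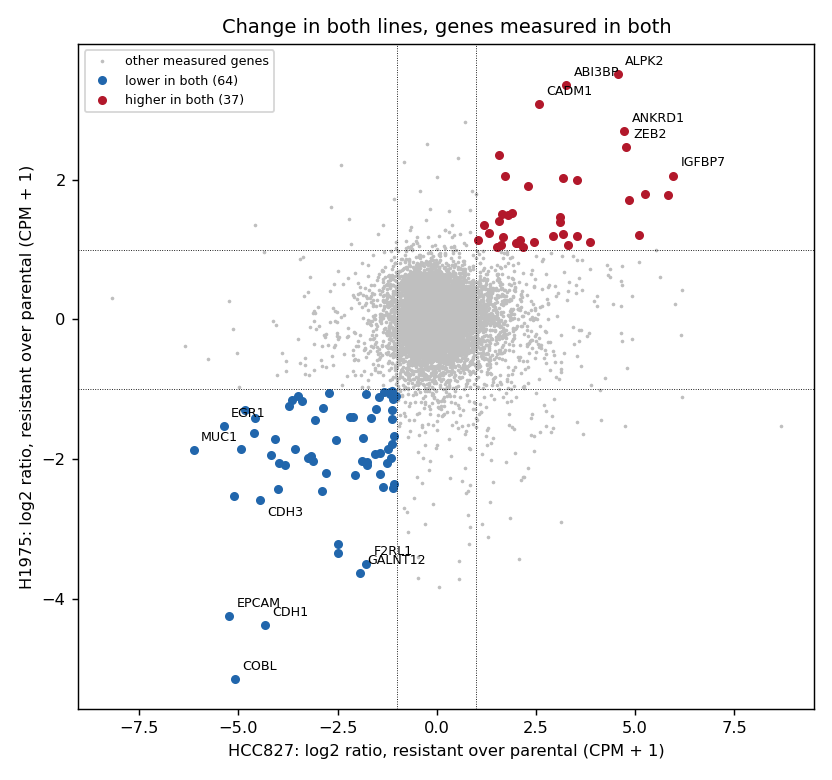
Log2 ratio of resistant over parental CPM (1 CPM added) in HCC827 on the x axis and H1975 on the y axis, 1 point for each of the 9212 measured genes; dotted lines mark 2-fold. The 64 genes lower in both (blue) reach down to COBL, CDH1 and EPCAM, set apart from the rest, and the 37 genes higher in both (red) reach up to ALPK2 at 4.56 and 3.51.

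Cell adhesion genes were among those with the deepest shared decreases. CDH1 (ENSG00000039068, hg38 chromosome 16, 68737225 to 68835548, plus strand), which encodes E-cadherin of the adherens junction, was at 467 CPM in parental and 22.1 CPM in resistant HCC827, and at 22.4 and 0.131 CPM in H1975. That is 21.1-fold lower in HCC827 (95% counting interval 19.4 to 23.0). In H1975 it was 171-fold lower (66.2 to 628), where 4 reads were left of 528. The resistant HCC827 library thus held about as much CDH1 as the parental H1975 library. In bulk RNA, fewer cells with a transcript and less transcript per cell cannot be told apart. EPCAM, an epithelial adhesion molecule, was at 432 and 10.6 CPM in HCC827 and at 26.6 and 0.46 CPM in H1975, which is 40.9-fold and 57.8-fold lower. CDH3, which encodes P-cadherin, was at 427 and 18.5 CPM in HCC827 and at 41.3 and 6.08 CPM in H1975.

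Beyond the 2 cadherins, 1 of 12 measured tight junction genes, 1 of 12 desmosome and hemidesmosome genes and 1 of 5 keratins were in the lower set. The tight junction gene CLDN4 was at 484 and 130 CPM in HCC827 and at 50.5 and 11.7 CPM in H1975, log2 ratios of −1.89 and −2.02. COL17A1, a transmembrane collagen of hemidesmosomes, was at 76.4 and 4.84 CPM in HCC827 and at 23.5 and 9.39 CPM in H1975. KRT19, a keratin of simple epithelia, was at 1768 and 744 CPM in HCC827 and at 316 and 74.9 CPM in H1975. The cytoplasmic partners of E-cadherin did not reach 2-fold: the log2 ratio of CTNNA1 was −0.53 in HCC827 and −0.18 in H1975, and that of CTNNB1 −0.57 and 0.02. Desmosome and hemidesmosome genes differed by line, as DSP, the desmosomal plaque protein, had −0.34 in HCC827 and −1.99 in H1975 and PKP3 had −2.99 and 0.18.

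Of 11 measured genes for the epithelial surface and apical traffic, EPCAM, PROM2, MYO5B and MUC1 were in the lower set and none in the higher set. Other genes with such roles stood on no list. COBL, which encodes the actin nucleator cordon-bleu, came first of the lower genes by the smaller of its 2 ratios, with 38.0 and 0.15 CPM in HCC827 and 46.9 and 0.361 CPM in H1975. It was 253-fold lower in HCC827 (98.6 to 931) and 130-fold lower in H1975 (72.3 to 261), so both resistant libraries were nearly without it. PROM2, a pentaspan protein of membrane protrusions, was at 72.6 and 1.12 CPM in HCC827 and at 20.3 and 2.69 CPM in H1975. MUC1, a transmembrane mucin of the apical surface, was at 146 and 1.09 CPM in HCC827 and at 49.8 and 12.9 CPM in H1975, 134-fold against 3.86-fold lower. Resistant H1975 thus kept more of its MUC1 than resistant HCC827 did. MYO5B, a motor of recycling endosomes, was at 65.2 and 3.22 CPM in HCC827 and at 22.7 and 4.66 CPM in H1975, with 73.1% of its reads mapping uniquely. MALL, a proteolipid of the MAL family, had log2 ratios of −4.01 and −2.43, and ELMO3, of the family that activates RAC with DOCK proteins, −2.90 and −2.46. The O-glycosylation enzymes GALNT12, GALNT5 and GALNT6 were all lower in both lines, and GALNT12 was at 19.1 CPM in parental and 0.624 CPM in resistant H1975.

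**Figure D2:**
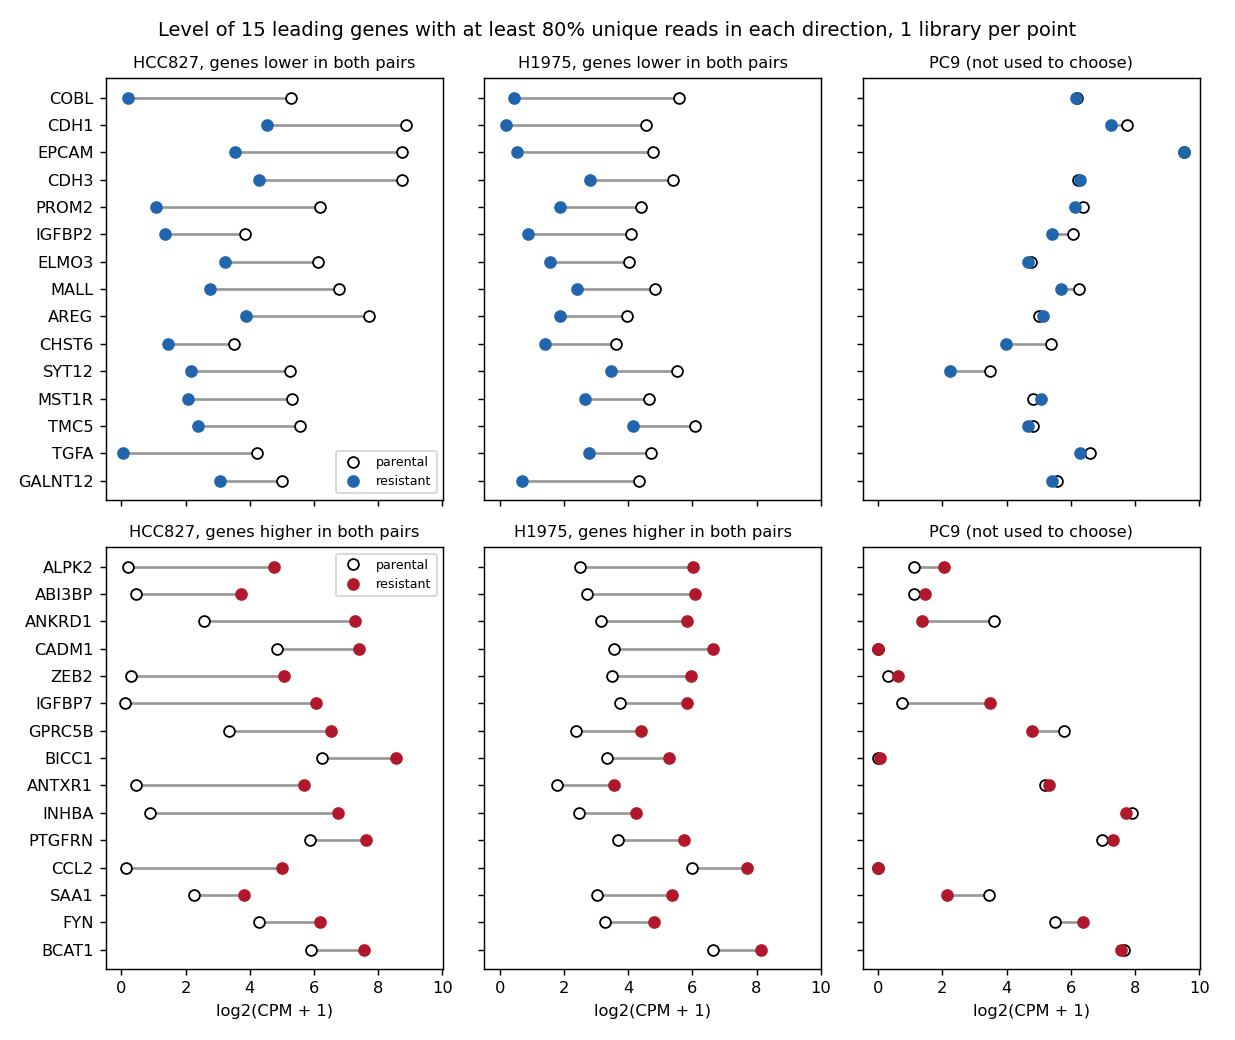
Level of the 15 leading genes in each direction with at least 80% uniquely mapping reads, as log2(CPM + 1) on the x axis, 1 library per point, parental open and resistant filled, in HCC827, H1975 and PC9. COBL, CDH1 and EPCAM drop to near 0 in resistant H1975, while their 2 PC9 points nearly coincide or, for CDH1, differ by 0.50.

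The sequence before the start of these genes was set beside their change, since ZEB and SNAI repressors bind the E-box CACCTG. Shown are the 250 bases before the gene start of 3 lower genes with that E-box, from 1 to 3 times, and of PROM2, lower too, which holds none. The sequences are RefSeq's on GRCh38.p14, written 5′ to 3′ on the strand of the gene, and capitals mark CACCTG or its reverse complement CAGGTG. MUC1 lies at chr1:155192910-155193159, minus strand; MYO5B at chr18:50195148-50195397, minus strand; ELMO3 at chr16:67198881-67199130, plus strand; and PROM2 at chr2:95274199-95274448, plus strand. The MUC1 matches begin 88 and 81 bases before the start, the MYO5B matches 168, 148 and 54 bases before it, and the ELMO3 match 90 bases before it.
MUC1: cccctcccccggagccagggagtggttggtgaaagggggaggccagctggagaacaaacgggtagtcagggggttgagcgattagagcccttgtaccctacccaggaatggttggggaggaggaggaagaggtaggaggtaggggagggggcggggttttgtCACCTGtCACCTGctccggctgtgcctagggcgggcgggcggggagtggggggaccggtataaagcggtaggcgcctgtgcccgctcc
MYO5B: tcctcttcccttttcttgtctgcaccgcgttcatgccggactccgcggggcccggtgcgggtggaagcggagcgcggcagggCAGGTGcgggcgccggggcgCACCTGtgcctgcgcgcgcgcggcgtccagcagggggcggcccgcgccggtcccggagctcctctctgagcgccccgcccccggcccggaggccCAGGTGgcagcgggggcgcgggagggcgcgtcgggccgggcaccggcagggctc
ELMO3: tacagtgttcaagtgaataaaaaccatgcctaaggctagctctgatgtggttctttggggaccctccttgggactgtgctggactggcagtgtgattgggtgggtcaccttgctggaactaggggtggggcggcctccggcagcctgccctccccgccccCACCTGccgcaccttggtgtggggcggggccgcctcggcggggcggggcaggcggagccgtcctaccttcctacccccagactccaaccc
PROM2: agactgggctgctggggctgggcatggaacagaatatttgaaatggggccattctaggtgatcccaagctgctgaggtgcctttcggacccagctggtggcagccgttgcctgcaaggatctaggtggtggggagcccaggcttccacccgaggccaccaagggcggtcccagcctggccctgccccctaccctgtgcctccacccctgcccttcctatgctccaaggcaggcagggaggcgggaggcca

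Promoter windows were matched by symbol for 41 of the 64 lower genes (67 windows, since a gene can have several starts) and 24 of the 37 higher genes (39 windows). Among the lower genes not matched were CDH1, EPCAM, CDH3 and COBL. An E-box CACCTG on either strand lay in 44.8% of the windows of lower genes and 12.8% of those of higher genes. It lay in 14.9% of 10986 windows of genes measured in both lines and in 17.5% of all 35116 windows. By gene, 23 of 41 lower genes (56.1%) and 5 of 24 higher genes (20.8%) had a match, against 19.4% of 7495 measured genes. Among the lower genes with a match were AREG, MST1R, TGFA, F2RL1, RHOD, MISP and MAPK13, and MISP and MAPK13 each held 3. Windows with 2 or more matches numbered 8 of 67 among the lower genes, 2 of them the overlapping windows of MUC1, 0 of 39 among the higher genes, 192 of 10986 among measured genes and 887 of 35116 in all. The mean GC content was 62.0% in the windows of lower genes, 60.1% in those of higher genes and 63.8% in those of measured genes. The AP-1 motif TGANTCA lay in 4.48% of lower and 7.69% of higher windows (4.15% of measured), and the TEAD motif GGAATG in 16.4% and 7.69% (9.81% of measured). Windows of 1 gene can overlap, as those of MUC1 do, and a match is a run of letters and no measured binding. Matches of 2 of the motifs can share letters at their ends, and CACCTG is also read by other E-box factors.

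**Figure D3:**
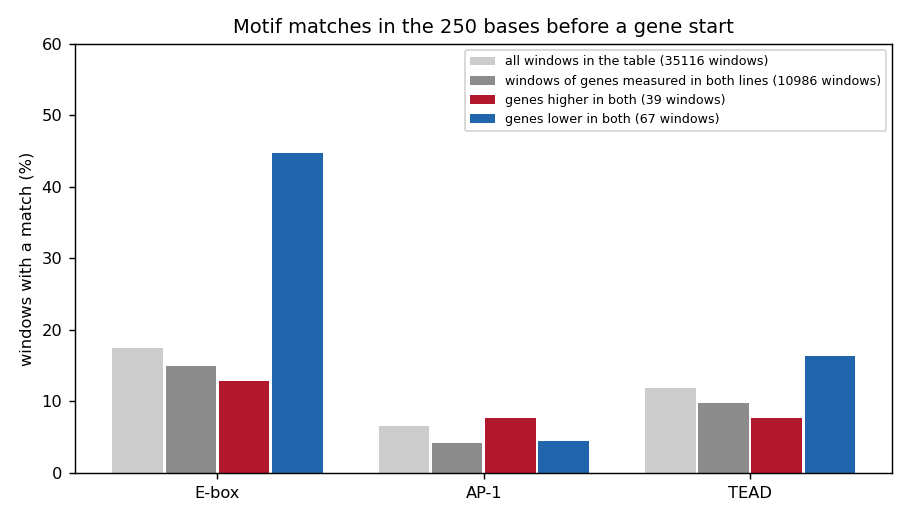
Share of promoter windows (y axis, %) with an E-box, AP-1 or TEAD motif on either strand in the 250 bases before a gene start, for all windows, those of measured genes, and those of the genes higher and lower in both lines. The E-box bar of the lower genes reaches 44.8%, against 14.9% for measured genes, while no AP-1 bar passes 7.69%.

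The repressor genes themselves were not all shared. ZEB2 (hg38 chromosome 2, 144364364 to 144524583) was at 0.219 CPM in parental and 32.4 CPM in resistant HCC827, and at 10.2 and 61.1 CPM in H1975. It was 148-fold higher in HCC827 (67.7 to 404, from 6 parental reads) and 5.98-fold higher in H1975 (5.23 to 6.87). ZEB1, its paralog, was at 0.62 and 25.7 CPM in HCC827 but at 43.8 and 50.1 CPM in H1975, so it was already present in the parental line. The ratios of SNAI2 were 2.76 in HCC827 and −0.62 in H1975, and those of SNAI1 −1.17 and −0.31. TWIST1 had at most 1.05 CPM in these 4 libraries. Of the 10 measured genes listed as repressors or mesenchymal factors, ZEB2 alone was in the set.

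None of the 8 measured epithelial transcription and splicing factors was in the set, and 5 were 2-fold lower in HCC827 alone, with list medians of −1.33 in HCC827 and 0.00 in H1975. ESRP1, which directs epithelial splicing, was at 257 and 0.187 CPM in HCC827 and at 5.86 and 0 CPM in H1975, where no library reached 10 CPM. GRHL2 was at 60.1 and 0 CPM in HCC827 and at 1.78 and 0.0328 CPM in H1975. OVOL2 was at 18.5 and 0.0375 CPM in HCC827 and at no more than 0.0849 CPM in H1975. ESRP2 had log2 ratios of −1.69 and −0.03, and EHF −4.99 and −0.97.

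Across 7 lists of epithelial genes, 59 of 128 genes were measured in both lines, and 10 of them (16.9%) were among the lower genes, against 0.695% of all measured genes. None was among the higher genes. In HCC827 28 of the 59 were 2-fold lower, in H1975 17 and in PC9 1, with medians of −0.85, −0.70 and −0.04; 5, 0 and 4 were 2-fold higher. Of the 69 listed genes under 10 CPM in every library of a line, 16 were also at least 2-fold lower in both, among them the tight junction genes CLDN3, OCLN and CGN, the membrane proteases ST14 and PRSS8, and the inhibitor SPINT1. CDH1 is 1 of the 10, and its change chose the lines and left PC9 out. Part of these counts and of the contrast with PC9 was thus fixed by that choice. The lists were drawn up with results of these data known, so their counts are a description.

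Mesenchymal and matrix genes were mostly higher in HCC827 without reaching 2-fold in H1975. Of 78 listed genes 38 were measured in both lines, and 28 were 2-fold higher in HCC827 against 4 in H1975, with medians of 2.38 and 0.18. In PC9 12 were 2-fold higher, with a median of 0.31. In HCC827, H1975 and PC9 2, 2 and 0 were 2-fold lower. The higher set held ZEB2, TPM1 and IGFBP7 from these lists (7.89%, against 0.402% of all measured genes), and the lower set held LMO7, a junction and cytoskeleton protein. TPM1, an actin-binding tropomyosin, was at 133 and 1214 CPM in HCC827 and at 117 and 274 CPM in H1975. VIM, the mesenchymal filament gene, was at 39.1 and 878 CPM in HCC827 but at 2121 and 2470 CPM in H1975. CDH2, which encodes N-cadherin, was at 1.02 and 90.4 CPM in HCC827 and at no more than 0.263 CPM in H1975. CDH1 was thus lower in resistant H1975 where VIM was high in both libraries and CDH2 near 0 in both. AXL, a receptor kinase often high in mesenchymal states, had 6.19 in HCC827 and −1.10 in H1975 on the log2 scale.

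Markers of other cell types were set beside these genes. Summed over 10 fibroblast markers, the level was 22.0 and 25.7 CPM in HCC827 and 65.7 and 138 CPM in H1975, with COL1A1 the only 1 at 10 CPM in any library and PDPN at 0 reads in all 4. Summed over 10 leukocyte markers it was 82.7 and 177 CPM in HCC827 and 140 and 137 CPM in H1975, carried by CD14 and CD68, with CD3E and MS4A1 at 0 reads. The 10 endothelial markers summed to between 5.72 and 7.42 CPM, with ERG and EMCN at 0 reads. The mitochondrial share of reads went from 3.32% to 6.62% in HCC827 and from 5.56% to 4.67% in H1975. The part of these shifts in the shared changes was not tested.

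Of 19 measured extracellular matrix genes on the list, IGFBP7 alone was in the higher set, 15 were higher in HCC827 alone and 1 in H1975 alone. Other higher genes with secreted or matrix-associated products stood on no matrix list and are given by role, after their values were seen. ABI3BP, an extracellular matrix protein, was at 0.364 and 12.2 CPM in HCC827 and at 5.56 and 66.4 CPM in H1975, log2 ratios of 3.27 and 3.36. IGFBP7, a secreted IGF-binding protein, had the largest ratio of the higher genes in HCC827, 5.96, from 2 parental reads, and 2.06 in H1975. INHBA, the subunit of activin A, was at 0.875 and 107 CPM in HCC827 and at 4.54 and 18.1 CPM in H1975. MATN2, FBLN2 and FSTL1, which encode matrix or secreted glycoproteins, had 5.11, 3.30 and 2.02 in HCC827 and 1.21, 1.06 and 1.10 in H1975. ANTXR1, a collagen-binding receptor, was at 0.364 and 50.8 CPM in HCC827 and at 2.42 and 10.8 CPM in H1975. In contrast IGFBP2, another secreted IGF-binding protein, was among the lower genes, with log2 ratios of −2.48 and −3.22.

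Other leading higher genes act in adhesion and signalling. ALPK2, an alpha-kinase, came first by the smaller of its 2 ratios, with 0.146 and 26.0 CPM in HCC827 and 4.63 and 63.2 CPM in H1975, 178-fold (69.3 to 656) and 13.7-fold (11.3 to 16.7) higher. CADM1, an adhesion molecule of the immunoglobulin family, was at 27.7 and 169 CPM in HCC827 and at 10.8 and 98.9 CPM in H1975. ANKRD1, a nuclear ankyrin-repeat protein known as a YAP target, was at 4.92 and 156 CPM in HCC827 and at 7.81 and 55.9 CPM in H1975. Of 20 measured YAP/TEAD targets, ANKRD1 and FJX1 were in the higher set and NT5E in the lower set, while 15 others were higher in HCC827 alone. FYN, a SRC-family kinase, had log2 ratios of 1.90 and 1.52, and NEDD9, a scaffold of focal adhesions, 1.57 and 1.41. BICC1, an RNA-binding protein, was at 75.8 and 374 CPM in HCC827 and at 9.21 and 37.4 CPM in H1975. NECTIN3, a nectin of cell contacts, was higher, at 2.01 and 1.10.

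Several genes of inflammation were higher in both lines. Of 19 measured NF-kB inflammatory genes, CCL2, SAA1, CSF1 and CXCL8 were in the higher set, which held 0.402% of all measured genes. None was in the lower set. The list's medians were 1.37 in HCC827, 0.89 in H1975 and −0.09 in PC9, against −0.01, 0.06 and −0.03 over all measured genes. CCL2, a monocyte chemokine, was at 0.109 and 30.8 CPM in HCC827 and at 63.0 and 209 CPM in H1975. CSF1, the macrophage growth factor, ended at similar CPM in both resistant libraries: it was at 24.7 and 221 CPM in HCC827 and at 80.5 and 213 CPM in H1975. CXCL8, a neutrophil chemokine, had log2 ratios of 3.86 and 1.11. SAA1, an acute-phase protein, had 1.56 and 2.35. The complement proteases C1R and C1S, neighbours on chromosome 12 with 9167 bases between them, had 1.68 and 1.62 in HCC827 and 1.18 and 1.06 in H1975; 75.1% of the C1R reads mapped uniquely. On the lower side stood IL18, a cytokine of epithelia, with −3.08 and −1.44 and 56.9% unique reads.

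Of the genes listed as EGFR family members, 2 of 7 measured were in the lower set, and of other receptor tyrosine kinases and ligands 2 of 15. None was in the higher set, but 8 of the 15 were higher in HCC827 and not in H1975, and 1 was lower in H1975 and not in HCC827. AXL moved in opposite directions, with 6.19 and −1.10. The medians of those 15 were 1.53 in HCC827 and −0.50 in H1975. AREG, a ligand of EGFR, was at 209 and 13.8 CPM in HCC827 and at 14.6 and 2.66 CPM in H1975. TGFA, another EGFR ligand, was at 17.9 and 0.0375 CPM in HCC827, where 1 read was left of 491, and at 25.2 and 5.81 CPM in H1975. EGFR itself had −4.03 in HCC827 and −0.79 in H1975. ERBB3, its partner receptor, had −3.03 and −2.31 but was under 10 CPM in H1975 (5.77 and 0.361 CPM), and 54.8% of its reads mapped uniquely. MST1R, the receptor of macrophage-stimulating protein, was at 39.1 and 3.22 CPM in HCC827 and at 24.2 and 5.35 CPM in H1975. MET, the receptor of hepatocyte growth factor, was at 470 and 219 CPM in HCC827 and at 492 and 223 CPM in H1975, nearly the same levels and the same ratio in both lines. F2RL1, a receptor cleaved by trypsin-like proteases, was at 96.6 and 27.4 CPM in HCC827 and at 58.4 and 4.27 CPM in H1975.

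Of 16 measured genes that report ERK signalling, the immediate-early gene EGR1, the ERK phosphatase DUSP4 and PHLDA1 were in the lower set, none was in the higher set, and 5 were lower in HCC827 alone. EGR1 had log2 ratios of −5.37 and −1.52. DUSP4 was at 19.2 and 8.29 CPM in HCC827 and at 73.5 and 26.6 CPM in H1975. MAPK13, the p38 delta kinase, was at 67.0 and 1.39 CPM in HCC827 and at 32.3 and 12.6 CPM in H1975.

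A few lower genes belong to metabolism or to other roles. GSR, glutathione reductase, was at 112 and 48.5 CPM in HCC827 and at 50.8 and 24.2 CPM in H1975, the only 1 in the set of 20 measured NRF2, glutathione and aldo-keto reductase genes. NT5E, the ecto-enzyme CD73 that makes adenosine, was at 106 and 30.7 CPM in HCC827 and at 191 and 44.0 CPM in H1975. TGM2, a transglutaminase, had −3.57 and −1.85, and CRABP2, a retinoic acid carrier, −1.35 and −2.40. E2F8, a repressor of the E2F family, was lower at −1.19 and −1.07, while 0 of 36 measured cell cycle genes on the list were in the set. PEG10, an imprinted gene derived from a retrotransposon, was at 222 and 104 CPM in HCC827 and at 788 and 154 CPM in H1975.

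Other leading lower genes have varied roles. CHST6, a sulfotransferase, had −2.07 and −2.22. SYT12, of the synaptotagmin family, had −3.11 and −2.03, and TMC5 −3.17 and −1.95. Further down, MPZL2, an epithelial adhesion molecule of the immunoglobulin family, had −4.94 and −1.85, DTX4, of the deltex family of ubiquitin ligases, −4.07 and −1.71, and SORL1, a sorting receptor, −4.62 and −1.63. Also in the lower set, among others, were STMN3, TMEM45B, METTL7B, METTL7A, TSPAN13, EPB41L4B, EXPH5, FAM83A, STEAP2, SLC37A1, STRIP2, GALM, JADE2, SEL1L3, SLC12A9, TCN1 and C15orf48. The ratios of these listed genes ran from −3.64 (SLC37A1) to −1.09 (SLC12A9) in HCC827 and from −1.99 (STRIP2) to −1.04 (C15orf48) in H1975.

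The higher genes not yet named had smaller ratios in H1975 than ALPK2 or ABI3BP. GPRC5B, an orphan receptor, had 3.18 and 2.02, and PTGFRN, a membrane protein that binds the prostaglandin F receptor, 1.72 and 2.06. BCAT1, which starts the breakdown of branched-chain amino acids, was at 58.5 and 186 CPM in HCC827 and at 98.2 and 281 CPM in H1975. CPE, carboxypeptidase E, had 2.94 and 1.20, and SPEG, a muscle-type kinase, 1.20 and 1.35. GBP1, a guanylate-binding protein induced by interferon, had 1.05 and 1.14, and TNFRSF9, a receptor of the TNF family, was at 2.73 and 11.9 CPM in HCC827 and at 23.7 and 68.8 CPM in H1975.

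Some lists held no shared change. None of 24 measured type I interferon response genes was in the set. In HCC827 9 were lower without being lower in H1975, and in H1975 8 were higher without being higher in HCC827. A gene that moved in opposite directions is in both counts, and the medians were −0.64 and 0.76. None of 21 cholesterol genes was in the set, and 8 were lower in HCC827 alone. Glycolysis and hypoxia genes (27 measured), the BCL2 family (9), drug efflux transporters (7), integrins (8) and the 12 reference genes also gave 0. Of the 101 genes, 13 higher and 21 lower ones were on any of the 35 lists, and 24 and 43 were on none.

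**Figure D4:**
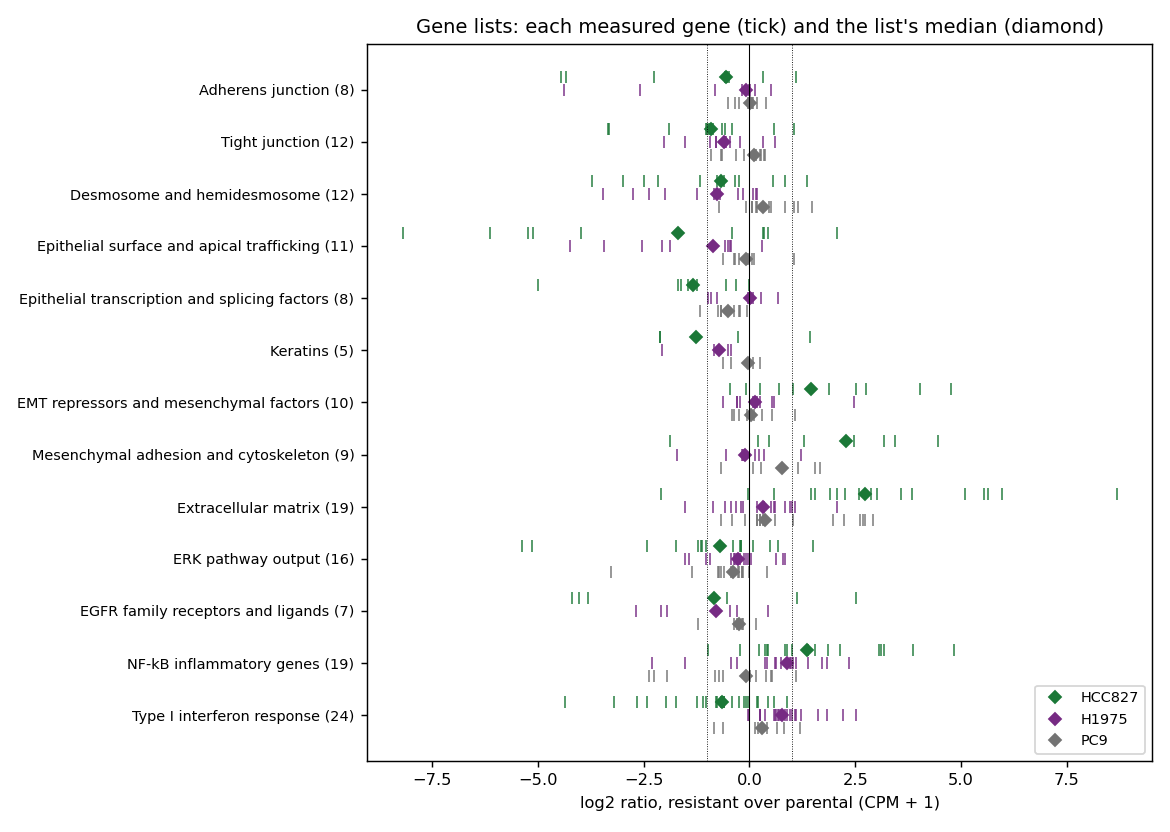
Log2 ratio of resistant over parental CPM (x axis) for the measured genes of 13 lists, with the number measured in parentheses; ticks are genes, diamonds are list medians, and dotted lines mark 2-fold. Extracellular matrix genes have a median of 2.72 in HCC827 and 0.33 in H1975, and interferon genes lie on opposite sides, at −0.64 and 0.76.

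The PC9 pair, whose ratios did not choose the genes although its CDH1 left it out, showed the shared changes only in part. Of the 37 higher genes 23 reached 10 CPM in a PC9 library, and 7 of these (30.4%) were at least 2-fold higher there, 3 were at least 2-fold lower and 13 lay between. Among all 8618 genes measured in the 3 lines, 1.25% were 2-fold higher in PC9 (of all 9911 genes measured in PC9, 2.42% were higher and 1.72% lower). Of the 64 lower genes 57 were measured in PC9, and 5 (8.77%) were at least 2-fold lower, 1 was higher and 51 lay between, against 1.21% of all genes lower. The median log2 ratio in PC9 was 0.33 for the higher and −0.26 for the lower genes, against −0.03 for all genes. With uniquely mapping reads the median of the higher genes was 0.16. By sign alone, 65.2% of the higher genes were above 0 (46.9% of all genes) and 71.9% of the lower genes below 0 (53.1% of all genes). Each share describes 1 pair of libraries and has no replicate check.

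COBL, EPCAM, CDH3 and CLDN4 lay within 2-fold in PC9. COBL was at 73.0 and 71.0 CPM in parental and resistant PC9, EPCAM at 745 and 732 CPM, CDH3 at 73.3 and 77.1 CPM and CLDN4 at 221 and 241 CPM. CDH1 was at 213 and 151 CPM, 1.41-fold lower (1.35 to 1.48); PC9 was left out because its CDH1 did not fall strongly, so this value is a description. ZEB2 had no more than 0.545 CPM in either PC9 library, and CADM1 and CCL2 had 0 reads in both. The 7 genes that were at least 2-fold higher in PC9 too were IGFBP7 (2.73 in PC9), RFLNB (1.92), AHRR (1.85), SELENOM (1.68), C1S (1.54), MATN2 (1.49) and PKD1P1 (1.16). The lower gene SORL1, under 10 CPM in both PC9 libraries, went from 92 reads to 0 there, a log2 ratio of −2.45. Of the lower genes that reached 10 CPM in PC9, 5 were at least 2-fold lower there too. These were EGR1 (−3.27), TFPI2 (−1.45), CHST6 (−1.39), SYT12 (−1.25) and PEG10 (−1.03). EGR1 is the 1 of them on the list of ERK output; the reads of PKD1P1 mapped uniquely in 2.24%, those of TFPI2 in 56.7% and those of MATN2 in 78.3% of cases.

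**Figure D5:**
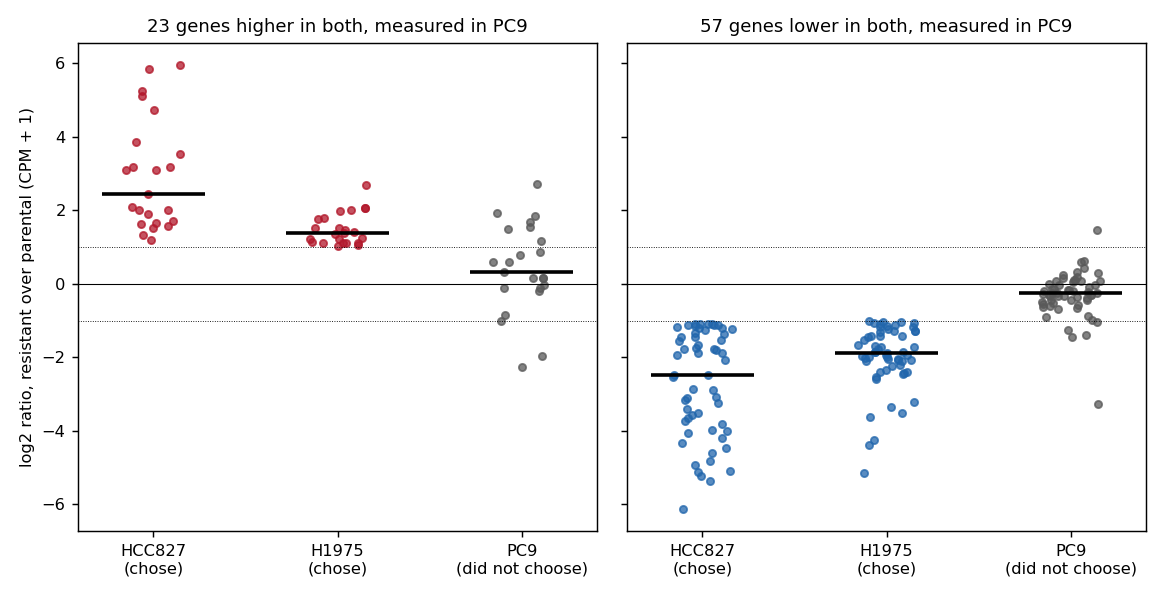
Log2 ratio of resistant over parental CPM (y axis) of the 23 higher (left) and 57 lower (right) genes measured in PC9, 1 point per gene, in HCC827 and H1975, which chose them, and in PC9; thick lines are medians of the points and dotted lines mark 2-fold. The PC9 medians, 0.33 and −0.26, lie near 0, and 51 of 57 lower genes lie within 2-fold there.

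Sharing between other pairs of lines was set beside these counts; the comparisons HCC827 with PC9 and H1975 with PC9 use libraries of the same lines and are not independent of the first. HCC827 and PC9, both gefitinib-selected, shared 78 higher genes (10.3% and 53.4% of the lists) and 22 lower genes (3.48% and 18.3%). H1975 and PC9 shared 18 higher genes (22.2% and 13.4%) and 13 lower genes (5.14% and 11.1%). The 64 lower genes of HCC827 and H1975 were thus more than the lower genes shared by either other pair of lines, while HCC827 and PC9 shared more higher genes; these differences were not tested.

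In position, the 101 genes lay on 21 chromosomes, with the highest shares of measured genes on chromosome 11 (4 higher and 10 lower, 2.53% of 554) and chromosome 7 (1 and 9, 2.24% of 446). CDH1 and CDH3 are neighbours, 14609 bases apart, and both were in the lower set. Of the 16 measured genes within 500000 bases of CDH1 those were the only 2 in the set: ESRP2 had −1.69 and −0.03, HAS3 −0.44 and −1.34, and ZFP90 0.53 and −1.22. The lower genes SYT12 and RHOD, 5955 bases apart on chromosome 11, were the closest pair.

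Reads from introns, counted apart from the exon reads in the same libraries, moved with the exon reads. Of the higher genes 33 had at least 20 intron reads in a library of each line, all 33 with the same sign as the exon reads in both lines and 20 at 2-fold in both. Of the lower genes 52 did, 50 with the same sign and 36 at 2-fold in both. The 2 exceptions were MFSD6, a membrane transporter, and PHLDA1. Either library of a line could supply the 20 reads, so a gene could qualify through the library where it is high. The sign and 2-fold counts were not made over all genes, so they are a description only. The median intron log2 ratio of the lower genes was −2.31 in HCC827 and −1.40 in H1975, against −0.10 and 0.12 over all genes with enough intron reads. For CDH1, intron reads were 206 and 25 in HCC827 and 12 and 1 in H1975.

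The limits of the set bear on the genes near the threshold. Just inside were ALDH1L2 (2.169 in HCC827 and 1.029 in H1975), FJX1 (1.509 and 1.025), TDRKH (−1.030 and −1.086) and PHLDA1 (−1.138 and −1.024). Just outside were ANXA8 (1.539 and 0.998), the collagen COL12A1 (5.541 and 0.997), DUS4L (−0.992 and −1.063) and OSBPL3 (−0.983 and −1.154). In HCC827 18 of the 37 higher and 37 of the 64 lower genes passed the filter on low values through 1 library only, and in H1975 11 and 37. Fewer than 80% of reads mapped uniquely for 6 higher genes (ALDH1L2, C1R, MATN2, PKD1P1, RFTN1, SLC43A3) and 6 lower genes (IL18, MYO5B, PAK6, TFPI2 and TNFRSF6B among them), and TNFRSF6B had none, so their values are uncertain.

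A paired test over the 4 libraries with edgeR's quasi-likelihood method, with cell line as a block and 1 residual degree of freedom, called no gene (0 of 13827, 0.0%), and its smallest adjusted p was 0.479; 521 genes had an unadjusted p under 0.05. limma-voom called 0 as well, and there 683 genes had an unadjusted p under 0.05. DESeq2 called 162 of 12754 genes (1.27%), and 771 had an unadjusted p under 0.05; of the 162, 90 were under 10 CPM in every library of a line. As the same contrast chose the 101 genes, nothing about them is read from these counts.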

How the data were processed

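Per the labels' protocols, RNA was extracted with GENEzol and stranded mRNA libraries were made with a TruSeq kit; whether counting used the strand is not given in the sources used here, so antisense or overlapping genes cannot be told apart. Trimmomatic, Bowtie2 and hg38 are named in the submitters' processing notes, with no role or version. Per the file headers the authors deposited whole-number counts per gene (total exon reads, uniquely mapping exon reads, intron reads) and TPM. The counter and the annotation release are also not given there.

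Total exon reads were scaled to CPM with TMM factors of edgeR 4.0.16 (R 4.3.3) over the 13541 genes that filterByExpr (minimum count 10, total 15) kept in the 6 libraries. Each library held 21222102 to 29366085 reads. Ratios of reads carry a 95% Clopper-Pearson interval. Libraries were grouped by the labels and paired because both come from the same cell line. The edgeR test was two-sided with Benjamini-Hochberg adjustment; DESeq2 1.42.0 and limma 3.58.1 were alternatives. The scripts were tested on simulated data. Intron ratios added 0.1 CPM. Promoters were matched by symbol in RefSeq's GRCh38.p14 table.

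The genes and the 35 lists (713 genes matched) were chosen with earlier results of these data known. Genes were named by rule: the 15 leading genes per direction by the smaller ratio of the 2 lines, up to 4 per list, 17 EMT and receptor genes, the 2 on each side of each threshold, the leading genes in PC9, and 4 with opposite changes each way. A gene that the rule took is not reported here. Other genes were named after their values were seen, to fill out a role.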

Additional observations from a re-analysis of the deposited data

Results flagged for a closer look

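Of the shared genes that reached 10 CPM in a PC9 library, 4 moved at least 2-fold in PC9 against the other lines. SAA1 and CPE, under 10 CPM in both PC9 libraries, did so too, with log2 ratios of −1.30 and −1.18 there. With 1 library per state these differences were not tested. ANKRD1, higher in HCC827 and H1975, had a log2 ratio of −2.26 in PC9 (from 11.2 to 1.55 CPM). CXCL8 had −1.95 there (from 27.1 to 6.29 CPM) and GPRC5B, an orphan receptor, −1.0 (from 54.5 to 26.7 CPM). COL17A1, lower in the other lines, had 1.47 (from 49.1 to 138 CPM).

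Genes that moved at least 2-fold in opposite directions in HCC827 and H1975 numbered 60 and 10, and the leading 4 each way are given with untested values. GPNMB, a transmembrane glycoprotein, had 3.13 in HCC827 and −2.90 in H1975, the scaffold AHNAK2 2.19 and −2.25, the redox protein NXN 2.18 and −2.26, and the cytokine IL11 2.13 and −2.30. Lower in HCC827 and higher in H1975 were the interferon-induced IFI44L (−2.41 and 2.22) and OAS1 (−2.66 and 1.61), the phospholipase PLA2G4A (−2.22 and 1.43) and the cyclooxygenase PTGS2 (−1.37 and 1.35).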

How the results depend on the processing

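With 1 library per state, the set rests on a fold threshold and not on replicates, and 37 of the 64 lower genes passed the filter through 1 library only. The 37 higher and 64 lower genes became 22 and 69 with TPM in place of CPM (21 and 51 of the same genes), 7 and 14 at 4-fold, 15 and 14 with at least 50 CPM, and 68 and 164 with no filter on low values. Scaling by library size alone, which moved the median of all HCC827 genes from −0.01 to −0.11, gave 32 and 80, and 5 CPM added gave 31 and 46. Leaving out a line left the genes of 1 line: 175 to 1078 higher and 320 to 788 lower. Unique reads gave 36 and 62, and relative log expression factors 37 and 64. With TMM factors over the 4 libraries of HCC827 and H1975, without PC9, there were 35 and 67. Genes with at least 80% unique reads, an alternative chosen after seeing the data, gave 31 and 58. With 5 CPM added, 3 of the lower genes were 2-fold lower in PC9 and not 5. DESeq2 called 162 genes where edgeR called 0. With no replicate block, that is without pairing by line, edgeR called 0 (131 genes had an unadjusted p under 0.05), and leaving out a line left no residual degree of freedom. With unique reads the PC9 median of the higher genes was 0.16 and not 0.33. The other counts were within 1.5 times, and no result reversed under these alternatives. Of 1449 values of 69 named genes over the alternatives, 1015 moved by less than counting error and 434 by more.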
